A study of Mus musculus with 8 samples.

Results

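The semaphorin, ephrin, Slit and netrin families and their receptors were read on 149 probe sets that stand for 68 genes, out of 45037 probe sets on the array. A probe set is a group of short probes that together report 1 transcript or transcript variant. Members were matched by gene symbol, as annotated in the deposited table: semaphorins of classes 3 to 7, plexins, neuropilins, ephrins and Eph receptors of the A and B classes, Slits, Robos, netrins and Unc5 receptors, 11 families in all. Of the 68 genes, 46 were read by several probe sets. The files attach a cross-hybridisation note to 49 of the 149 probe sets, and 4 share their row with a second gene symbol (3 of Plxnc1 and 1 of Sema3a), so signal from other transcripts cannot be told apart there.

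RNA came from a mouse mesenchymal line that the labels spell CH310T1/2, plated at high density in micromass, a culture form used to study how cartilage begins. All cells, controls included, had been electroporated. There were 8 arrays in 4 groups of 2: control plasmid on day 0, Erg-010 under the CMV promoter on day 0, control plasmid on day 1, and Erg-010 under the Col2 promoter on day 1. Erg is an ETS family transcription factor, CMV is a viral promoter that is active in most cells, and Col2 is the promoter of the cartilage collagen gene. Within the Erg arm, promoter and day change together and cannot be told apart. The labels number the arrays 1 to 4 on day 0 and 5 to 8 on day 1, and an effect of that order cannot be told apart from an effect of day. No label says whether the 2 repeats of a group were separate cultures, so p-values here reflect a spread among arrays that could be technical.

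These families were named for steering growing axons. Semaphorins bind plexins, the class 3 members through neuropilins. Ephrins are ligands held on the cell surface, and they bind Eph receptor kinases on the neighbouring cell. Slits bind Robos, and netrins bind Unc5 receptors and Dcc. In mesenchyme and the developing skeleton the same molecules are known for setting cell contact, repulsion, migration and tissue boundaries.

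Values are log2 of the deposited intensities, with array medians between 6.59 and 6.70. Probe sets differ in how strongly they bind, so a brighter probe set does not mean more mRNA; "brightest" below only names the probe set with the highest mean signal. The sequence of the Erg plasmid is not given, and neither Erg probe set was higher in the arrays labelled Erg: 1 read 1.26 lower on day 0 and 0.36 lower on day 1 as the difference of means in log2, and the other 0.14 and 0.09 lower. The second Erg array of day 0 stood apart, with an SD of the replicate gap over all probe sets of 0.611 in its group, against 0.233 to 0.335 in the other 3 groups. Its own difference from the mean of the day 0 controls had an SD of 0.523, against 0.254 for the first Erg array. Of the mesenchyme markers, 10 of 10 lay above the array median on all 8 arrays. Among 9 chondrocyte markers, Sox9 rose between the control days by 1.44 (SE 0.20), the other 8 did not pass, and Matn1, Matn3 and Hapln1 stayed below the array median on every array. Of the 8 endothelial markers, Pecam1, Cdh5, Tie1 and Emcn were below the array median on all 8 arrays. Kdr and Esam were above it on all 8, Cldn5 on 6 and Tek on 3.

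Between day 0 and day 1 of the control cultures, 28 guidance probe sets in 20 genes rose and 10 in 6 genes fell at an adjusted p under 0.05. That is 18.8% and 6.71% of the members, where the background over all probe sets was 11.8% higher and 7.97% lower. Both directions together made 38 probe sets or 25.5%, against 19.8% of all probe sets. The change was uneven in size: 21 members in 15 genes rose at least 2-fold (14.1%, against 6.91% of all probe sets), and 0 fell by as much (1.76% of all probe sets). Over all 149 members the signs were balanced, with 73 positive and 76 negative differences and a median near 0, where all probe sets had a median of -0.11 and 39.7% positive differences. After cyclic loess normalization 29 rose and 4 fell, so the split between the directions moved with the scaling.

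The count depended on which arrays were used. It was 9 without control day 0 replicate 1 and 4 without control day 0 replicate 2, all of them higher, where 1.8% and 0.813% of all probe sets passed. It was 22 without either control array of day 1, where 9.94% (replicate 1) and 6.63% (replicate 2) of all passed. Dropping either Erg array of day 0, which only informs the pooled variance here, gave 58, with 36.6% of all. Slit3, Sema3g and the Plxna2 probe set with the largest change passed in each of the 14 other settings tried.

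**Figure D1:**
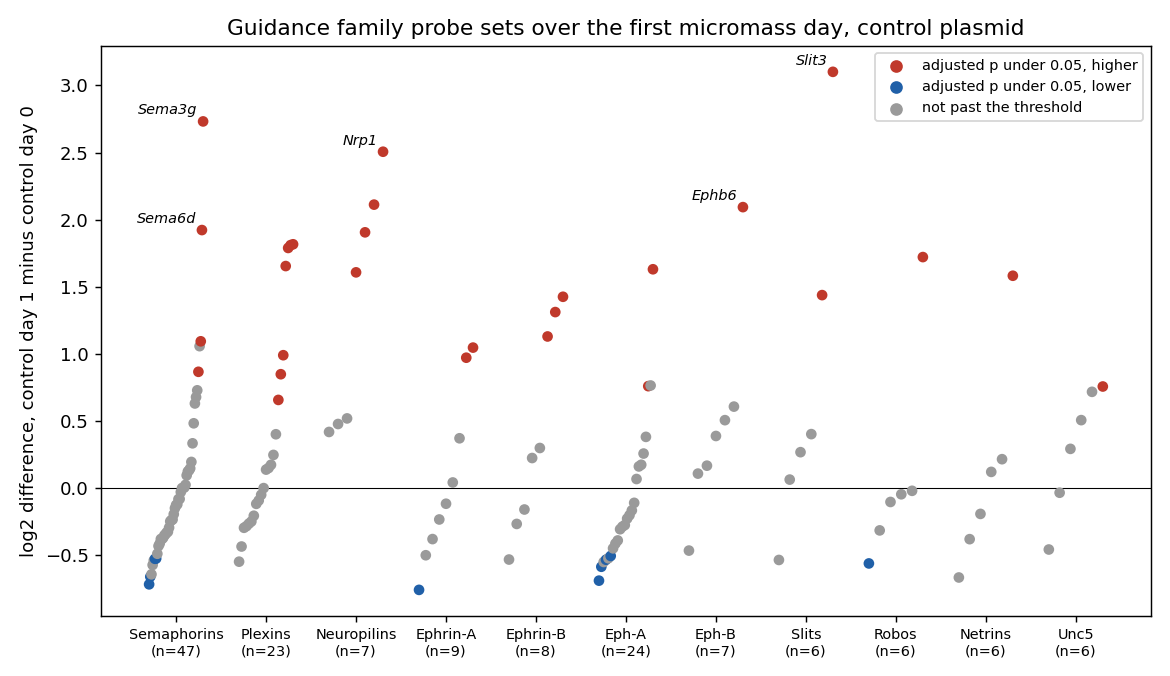
Log2 difference between the control days (day 1 minus day 0) for each of the 149 guidance probe sets, grouped by family with the number of probe sets below each name. Points are single probe sets, red and blue where the adjusted p was under 0.05; the tallest points are Slit3 at 3.10 and Sema3g at 2.73, and no blue point lies below -0.76.

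Among the Slits, secreted ligands of Robo receptors, Slit3 had the largest rise of the members. Its probe set, aligned in the deposited annotation to chromosome 11 from 35513915 to 35525532 (build not stated), read 6.57 and 6.46 in the day 0 controls and 9.59 and 9.65 in the day 1 controls. The arrays labelled Erg read 7.52 and 6.86 on day 0, then 9.90 and 9.80 on day 1. All 4 day 1 arrays thus lay above all 4 day 0 arrays, and the control difference was 3.10 (SE 0.21, adjusted p = 0.00191), or 8.58-fold. The other Slit3 probe set differed by 0.40 and did not pass. Slit2 rose by 1.44 (SE 0.27, adjusted p = 0.0158) on 1 of 3 probe sets, from 6.64 and 6.72 to 7.68 and 8.55. Its brightest probe set differed by 0.06, and there the days overlapped. Slit1 differed by -0.54 and did not pass.

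Of the Slit receptors, 1 of 6 probe sets rose and 1 fell (16.7% each, against 11.8% and 7.97% of all probe sets). Robo1, which transmits Slit repulsion, read 5.53 and 5.19 on day 0, then 7.19 and 6.97 on day 1, a rise of 1.72 (SE 0.23, adjusted p = 0.00644) on 1 of 2 probe sets. The second probe set differed by -0.10. Robo3, a divergent receptor of the family, fell by 0.56 on log2 (SE 0.11, adjusted p = 0.0186), from 5.69 and 5.76 to 5.16 and 5.17, while its other probe set differed by -0.05. That call was lost after cyclic loess (-0.38, adjusted p = 0.0758). Robo2 stayed under the first quartile throughout, and Robo4, known from endothelium, differed by -0.32 without passing.

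Of the class 3 semaphorins, which are secreted, 2 of 18 probe sets rose (11.1%, near the 11.8% of all probe sets) and 0 fell. Sema3g, a ligand that acts through neuropilins, read 5.72 and 6.09 in the day 0 controls and 8.63 and 8.64 in the day 1 controls. The Erg arrays read 6.32 and 6.30, then 8.52 and 9.35. The days did not overlap in either arm, and the control rise was 2.73 (SE 0.27, adjusted p = 0.00347), or 6.64-fold. Its only probe set carries the cross-hybridisation note. Sema3b rose by 1.09 (SE 0.23, adjusted p = 0.021) on 1 of 3 probe sets, from 6.76 and 6.58 to 7.99 and 7.54, while the others differed by -0.19 and by less than 0.01. Sema3c, the brightest semaphorin probe set, read 10.77 and 10.70, then 11.17 and 10.96, a difference of 0.33 that did not pass. Its second probe set went the other way, at -0.64.

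Among the membrane-bound semaphorins of classes 4 to 7, 2 of 29 probe sets rose (6.9%) and 4 fell, against 11.8% and 7.97% of all probe sets. Sema6d, a transmembrane ligand of plexin-A1, read 6.65 and 6.80 on day 0, then 8.57 and 8.72 on day 1, and rose by 1.92 (SE 0.20, adjusted p = 0.00412) on 1 of 4 probe sets. The other 3 lay between -0.49 and 0. Sema4b rose by 0.87 (SE 0.23, adjusted p = 0.0444) on 1 of 2 probe sets. Its other probe set differed by -0.08, and the call was lost in 7 of 14 other settings.

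The falls were in class 6. Sema6a, a transmembrane ligand of plexin-A2 and plexin-A4, fell by 0.66 on log2 (SE 0.11, adjusted p = 0.0128) on a probe set that read 6.00 and 5.94, then 5.36 and 5.26. It fell by 0.52 on another, and the last differed by less than 0.01. Sema6c fell by 0.72 (adjusted p = 0.0113) and by 0.53 (adjusted p = 0.04) on 2 of 3 probe sets. The larger Sema6c fall came from a probe set aligned to the minus strand, while the gene lies on the plus strand, the only such case among 130 members with both strands known. What that probe set reads was not tested.

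Of the semaphorin receptors, 7 of 23 plexin probe sets (30.4%) and 4 of 7 neuropilin probe sets (57.1%) rose and 0 fell. Over all probe sets 11.8% rose and 7.97% fell, and the 4 neuropilin rises were all of 1 gene. Nrp1, the co-receptor for class 3 semaphorins and for VEGF, rose on 4 of 4 probe sets by 1.61 to 2.51. The brightest read 11.11 and 11.12 in the day 0 controls and 12.81 and 12.63 in the day 1 controls (SE 0.25, adjusted p = 0.00974). The Erg arrays read 11.68 and 10.88, then 12.95 and 13.00, again without overlap between the days. Nrp2, the second neuropilin, differed by 0.42 to 0.52 on 3 of 3 probe sets, none of which passed.

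Plxna2, a receptor for class 3 semaphorins with neuropilins and for class 6 semaphorins directly, also rose on 4 of 4 probe sets, by 0.66 to 1.82. The largest change was from 6.99 and 6.79 to 8.86 and 8.55 (SE 0.17, adjusted p = 0.00297), or 3.52-fold. Plxnb1, the receptor of Sema4d, rose by 1.65 (SE 0.38, adjusted p = 0.0278) on 1 of 2 probe sets, from 5.35 and 5.58 to 7.26 and 6.98. The brighter Plxnb1 probe set differed by less than 0.01 and did not pass. Plxnd1, the receptor of Sema3e, rose by 0.85 (SE 0.20, adjusted p = 0.029). Plxnc1, the receptor of Sema7a, rose by 0.99 (SE 0.28, adjusted p = 0.0488) on 1 of 6 probe sets, the others lying between -0.21 and 0.25. Plxna1, Plxna3, Plxna4, Plxnb2 and Plxnb3 had no probe set past the threshold, among them Plxnb2 at 9.60 and 9.85, then 10.44 and 9.82.

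The promoters of 5 of these genes are printed, chosen after their values were seen: Slit3, Sema3g and Plxna2 passed in the 14 settings named above, Nrp1 passed on all its probe sets, and Ephb6, described below, holds the letters of the ETS core. Each line is the 250 bases before the start site that RefSeq's promoters list first, in GRCm38.p6, which is the gene's annotated start for Slit3 and Sema3g and another start for the other 3, 5' to 3' on the gene's strand, with capitals marking GGGCGG or CCGCCC (the GC box on either strand) and CCGGAA or TTCCGG (an ETS core on either strand).
Slit3, chr11:35121206-35121455 (+): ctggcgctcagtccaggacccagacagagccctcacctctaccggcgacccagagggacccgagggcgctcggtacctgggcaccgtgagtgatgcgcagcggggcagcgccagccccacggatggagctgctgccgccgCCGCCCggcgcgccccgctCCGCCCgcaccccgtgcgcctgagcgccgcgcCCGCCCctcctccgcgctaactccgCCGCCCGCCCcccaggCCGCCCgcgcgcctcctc
Sema3g, chr14:31217623-31217872 (+): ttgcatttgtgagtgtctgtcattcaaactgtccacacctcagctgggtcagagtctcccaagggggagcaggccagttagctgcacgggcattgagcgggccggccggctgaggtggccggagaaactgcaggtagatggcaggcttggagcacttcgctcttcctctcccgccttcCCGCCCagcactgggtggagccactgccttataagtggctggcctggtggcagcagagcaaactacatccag
Plxna2, chr1:194619579-194619828 (+): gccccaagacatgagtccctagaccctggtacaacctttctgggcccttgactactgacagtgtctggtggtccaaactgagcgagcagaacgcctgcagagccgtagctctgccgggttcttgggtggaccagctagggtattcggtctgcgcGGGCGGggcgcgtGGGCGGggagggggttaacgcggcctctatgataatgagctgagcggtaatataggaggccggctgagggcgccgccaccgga
Nrp1, chr8:128358823-128359072 (+): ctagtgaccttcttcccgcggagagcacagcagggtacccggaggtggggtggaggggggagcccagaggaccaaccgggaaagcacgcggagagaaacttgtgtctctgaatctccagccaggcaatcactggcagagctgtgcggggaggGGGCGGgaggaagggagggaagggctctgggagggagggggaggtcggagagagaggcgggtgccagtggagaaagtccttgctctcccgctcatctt
Ephb6, chr6:41605261-41605510 (+): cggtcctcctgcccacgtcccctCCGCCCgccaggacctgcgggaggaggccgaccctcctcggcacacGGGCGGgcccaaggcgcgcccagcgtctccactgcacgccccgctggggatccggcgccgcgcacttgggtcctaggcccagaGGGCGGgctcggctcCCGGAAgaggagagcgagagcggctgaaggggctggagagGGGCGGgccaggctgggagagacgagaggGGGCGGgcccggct

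The GC box was found in 16 of 19 promoters of genes that rose (84.2%), in 5 of 5 of those that fell and in 22 of 35 of the others (62.9%), against 32.9% of the first-listed promoters of 27025 genes. Members' promoters were richer in G and C as a whole, with a median of 64.8% against 52.0% over all genes, and these letters are themselves G and C. The ETS core letters were in 3 of 19 (15.8%), 0 of 5 and 3 of 35 (8.57%), against 12.2% of all. The 3 genes that rose and hold them are Ephb6, 83 bases before the start, Plxnb1 and Sema4b. A TATAAA or TTTATA was in 2 of 19 (10.5%), and 13.0% of all. Neighbouring GC box matches overlap in some windows, among the printed ones in that of Slit3. These are matches of letters in short windows and say nothing of binding.

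Ephrin-B genes code for transmembrane ligands that also signal backwards into their own cell. They rose on 3 of 8 probe sets (37.5%, against 11.8% of all probe sets). Efnb1 read 6.45 and 6.30 on day 0, then 7.87 and 7.73 on day 1, a rise of 1.43 (SE 0.18, adjusted p = 0.00574) on 1 of 3 probe sets, where the others differed by 0.30 and -0.16. Efnb2 rose on 2 of 4, by 1.31 (SE 0.29, adjusted p = 0.0245) and 1.13 (SE 0.23, adjusted p = 0.0214), while the others differed by 0.22 and -0.53. Its brighter probe set read 10.28 and 10.05, then 11.44 and 11.15, so the days did not overlap. Efnb3 differed by -0.27 and did not pass.

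Ephrin-A genes, which code for lipid-anchored ligands, went both ways. Efna2 rose by 1.05 (SE 0.20, adjusted p = 0.0182), from 8.26 and 8.16 to 9.43 and 9.09. Efna5 rose by 0.97 (SE 0.20, adjusted p = 0.0208), from 8.32 and 7.84 to 9.24 and 8.86. Each passed on 1 of 2 probe sets, and the second differed by 0.04 for Efna2 and -0.50 for Efna5. Efna3 fell by 0.76 on log2 (SE 0.19, adjusted p = 0.0371), from 7.47 and 7.44 to 6.66 and 6.73. Its other probe set differed by -0.12, and the call was lost in 7 of 14 other settings. Efna1 and Efna4 did not pass.

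Among the Eph receptors, 1 B class gene and 1 A class gene rose. These rises were on 14.3% of the B class and 8.33% of the A class probe sets, against 11.8% of all. Ephb6, a member whose kinase domain is inactive, read 6.28 and 6.51 in the day 0 controls and 8.70 and 8.27 in the day 1 controls, a rise of 2.09 (SE 0.29, adjusted p = 0.00715), or 4.27-fold. The Erg arrays read 6.84 and 6.18, then 8.43 and 8.97, and all day 1 arrays lay above all day 0 arrays. Epha4, which binds ephrins of both classes, rose on 2 of 5 probe sets. The larger rise was 1.63 (SE 0.19, adjusted p = 0.00496), from 4.40 and 4.47, below the first quartile of those arrays, to 6.10 and 6.03. Ephb2, Ephb3 and Ephb4 had positive differences of 0.11 to 0.61, none past the threshold.

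Epha1 and Epha5 fell, on 16.7% of the A class probe sets, against 7.97% of all probe sets. Epha1, a receptor of A class ephrins, read 7.18 and 7.15, then 6.59 and 6.36, a fall of 0.69 on log2 (SE 0.15, adjusted p = 0.0225). It fell by 0.51 on a second of its 3 probe sets. Epha5 fell by 0.59 and 0.53 on 2 of 4 probe sets, but all 4 read below the first quartile on all 8 arrays. The same holds for every probe set of Epha3, Epha6, Robo2 and Unc5d, 5 genes in all. Without detection calls, whether these exceed background is unknown. Epha7, the brightest Eph-A probe set, read 8.90 and 9.17, then 9.79 and 9.81, and its difference of 0.76 (SE 0.47) did not pass. The other Epha7 probe sets differed by 0.17, 0.07 and -0.45, and none passed.

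Of the netrins, Ntn4, a laminin-related secreted netrin, rose on 1 of 2 probe sets. It read 7.64 and 7.54 on day 0, then 9.34 and 9.01 on day 1, a difference of 1.58 (SE 0.16, adjusted p = 0.00347), where the other probe set differed by 0.12. Ntn1, the founding netrin, read 9.84 and 9.70, then 10.32 and 9.65, and the days overlapped. Its dimmer probe set differed by -0.67 without passing (adjusted p = 0.0784), and there the days did not overlap. Unc5c, a netrin receptor, rose by 0.76 (SE 0.12, adjusted p = 0.00985), from 8.74 and 8.75 to 9.55 and 9.46. Its second probe set differed by 0.72 without passing (adjusted p = 0.0799). Unc5a, Unc5b and Unc5d did not pass.

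Over all probe sets, both day 1 controls lay above both day 0 controls in 28.7% and below them in 44%, the background for each statement above that the control days did not overlap.

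**Figure D2:**
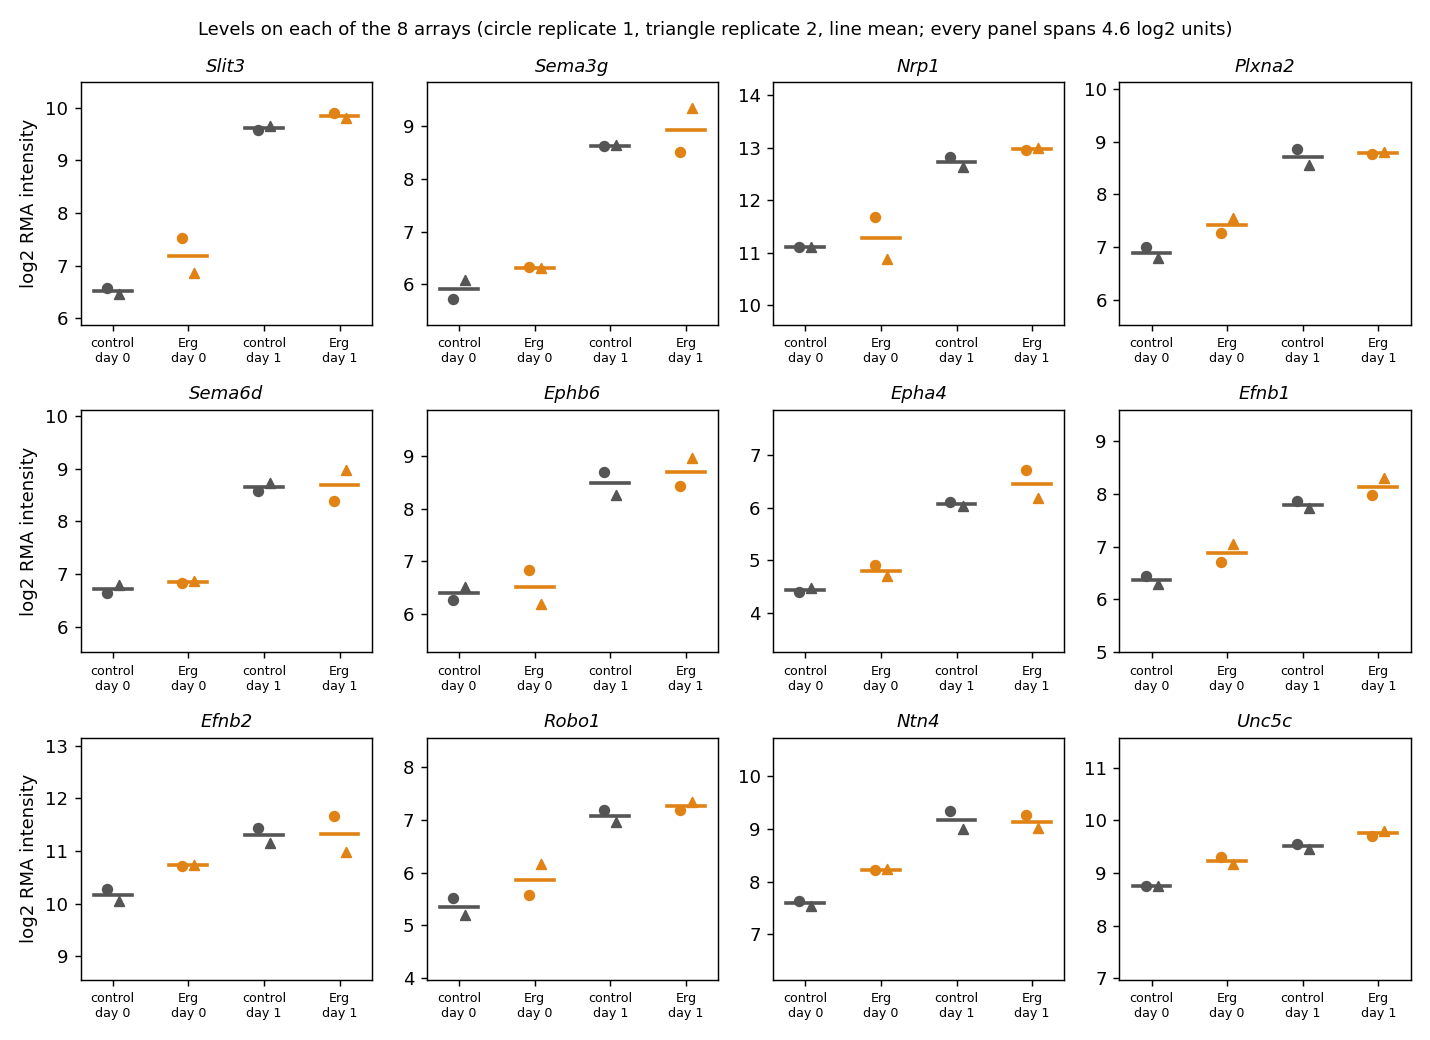
Log2 intensity of 12 guidance genes on each of the 8 arrays, 1 probe set per gene, by group; circles are replicate 1, triangles replicate 2 and lines group means, and every panel spans the same number of log2 units. Slit3 sits between 6.46 and 7.52 on the 4 day 0 arrays and between 9.59 and 9.90 on the 4 day 1 arrays.

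Probe sets of the same gene often gave different answers. Of the 26 genes with a call, 23 were read by several probe sets, and in 2 of these, Nrp1 and Plxna2, every probe set passed. In 0 genes did 1 probe set rise and another fall past the threshold. Of the 10 falls, 5 came from probe sets below the array median on all 8 arrays, and 0 from probe sets above it on all 8. With the probe set of highest mean standing for each gene, 15 genes rose and 3 fell of 68 (22.1% and 4.41%). The share over all genes read in this way is not given here. The 11.8% and 7.97% of all probe sets include dimmer ones and are not a like background.

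**Figure D3:**
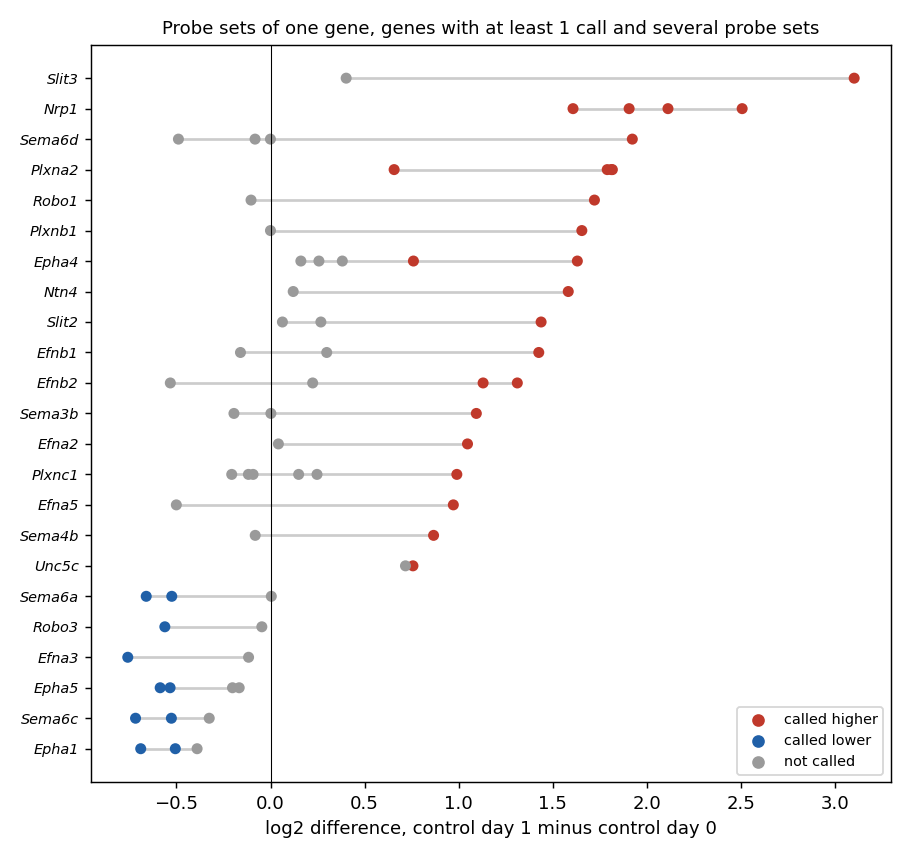
Log2 difference between the control days for every probe set of the 23 genes with a call and several probe sets; each row is a gene, each point a probe set, and grey lines join the lowest and the highest. All points of Nrp1 and Plxna2 are red, while Sema6d has 1 red point at 1.92 and 3 grey ones at or below 0.

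The day change was also read in the arm labelled Erg, on 4 other arrays. There 19 guidance probe sets in 13 genes rose and 0 fell (12.8% of the members, against 5.32% higher and 1.67% lower over all probe sets). All 19 had also risen between the control days, as had 2239 of the 2395 probe sets of the whole array that rose between the Erg days. Rises in both comparisons made up 4.97% of all probe sets. All 28 that rose between the control days were positive in the Erg arm with no overlap between its days. Over all probe sets, not risers alone, that share was 24.6%. Of the 5334 probe sets of the whole array that rose between the control days, 99.9% were positive in the Erg arm and 42% passed there, against 67.9% of the 28 members. The 10 that fell were negative in the Erg arm, but 0 passed there in limma and 1, of Epha1, had an unadjusted p under 0.05 (24.9% of all probe sets had one, 10.4% being lower). Of the 3588 probe sets of the whole array that fell between the control days, 98.7% were negative in the Erg arm and 18.6% passed there. These 10 had a median of -0.57 between the control days and -0.19 between the Erg days.

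The 19 became 5 when Erg day 1 replicate 1 was dropped and 3 when replicate 2 was, with 0.864% and 0.233% of all probe sets. Dropping either control array of day 0 gave 10, with 1.78% of all. Dropping Erg day 0 replicate 1 gave 46 and dropping its replicate 2, the array that stood apart, gave 21, with 23% and 9.65% of all. It was 0 with the 4 Erg arrays fitted alone, with 0.0511% of all. The day changes of the 2 arms had a Pearson r of 0.93 over 149 probe sets and 0.95 over 68 genes, against 0.87 over all probe sets. These are correlations across features of the same arrays, normalized together, and carry no p.

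Sizes in the Erg arm were near those in the controls for the largest risers. Slit3 rose by 2.66 (SE 0.21, adjusted p = 0.00351), Sema3g by 2.62, Ephb6 by 2.19 and Sema6d by 1.83. Nrp1 rose on 4 of 4 probe sets by 1.69 to 2.16. Ntn4 rose by 0.91 against 1.58 in the controls. Slit2 differed by 0.70 against 1.44, and Efnb2 by 0.59 and 0.75 against 1.13 and 1.31, none of them past the threshold in the Erg arm. The test of the difference between the arms passed for 0 members.

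**Figure D4:**
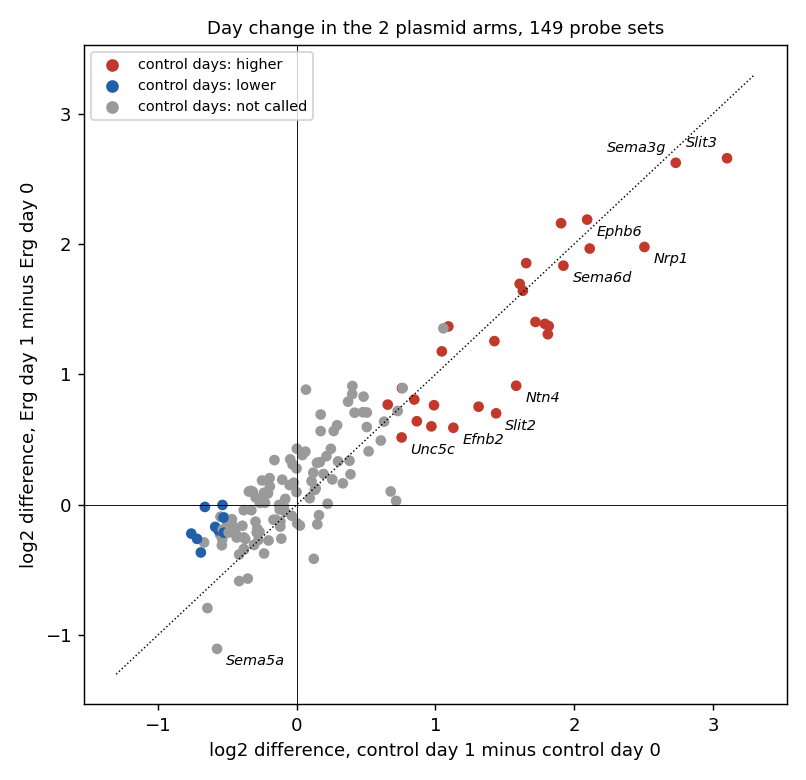
Log2 day change in the control arm (horizontal) and in the Erg arm (vertical) for 149 guidance probe sets, coloured by the call between the control days; the dotted line marks equal change. Slit3 and Sema3g lie at the upper right, and all 28 red points are above 0 on the vertical axis.

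On day 0, arrays labelled Erg against controls gave 0 guidance probe sets past the threshold in limma, as over the whole array (0% called). At an unadjusted p under 0.05 there were 18 (12.1%, against 5.43% of all probe sets), 11 higher and 7 lower (7.38% and 4.7%, against 2.37% and 3.05%). The Erg pair lay wholly above the control pair in 31 members (20.8%, against 13.6%) and wholly below in 34 (22.8%, against 17.6%). The 11 higher were 3 probe sets of Plxna2, 2 of Unc5c and 1 each of Efna5, Efnb1, Efnb2, Ephb2, Slit3 and Ntn4. The 7 lower were 2 of Robo3 and 1 each of Sema3b, Sema6a, Sema6c, Epha5 and Robo4. This comparison uses the same day 0 control arrays as the comparison of days, so the lists are not independent.

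Unc5c, the netrin receptor, read 8.74 and 8.75 in the day 0 controls and 9.30 and 9.17 in the Erg arrays, a difference of 0.49 (SE 0.12, unadjusted p = 0.0048 and adjusted p = 0.802 in limma). Ntn4 read 7.64 and 7.54, then 8.22 and 8.24, a difference of 0.64 (SE 0.16). Plxna2, on its brightest probe set, read 8.06 and 7.90, then 8.56 and 8.56, a difference of 0.58 (SE 0.18). On each of these probe sets both Erg arrays lay above both controls. Sema6a read 6.00 and 5.94, then 5.34 and 5.38, a difference of -0.61 (SE 0.11). Epha5 differed by -0.43, on a probe set below the first quartile on all 8 arrays, and Sema3b by -0.46. On the probe set shown for each of these 3 genes both Erg arrays lay below both controls. The other Epha5 probe sets differed by -0.19, -0.06 and 0.06, and the groups overlapped where the difference was -0.06 or 0.06.

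Without Erg day 0 replicate 2, which stood apart, these 6 differences were 0.55, 0.63, 0.58, -0.63, -0.45 and -0.33 in the same order, and 0 members passed. Without Erg day 0 replicate 1 instead, 10 members passed (6.71%, against 7.54% of all probe sets in that setting), 3 higher and 7 lower, among them Sema6a at -0.59 (adjusted p = 0.0497), with 1 Erg array left whose own spread cannot be measured. The count of positive members moved with these arrays too. It was 65 of 149 with all arrays (43.6%, against 47.2% of all probe sets), 93 without replicate 2 and 49 without replicate 1. Shares of all probe sets with an array left out are not given here. Whether the move is particular to these families is thus not shown.

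On day 1, with the Col2 promoter, 0 members passed in limma (0% of all probe sets) and 0 had an unadjusted p under 0.05, against 1.37% of all, of which 0.298% higher and 1.07% lower. Positive differences made up 115 of 149 (77.2%, against 57.3%), with a median of 0.08 against 0.03. Both Erg arrays lay above both controls in 39 (26.2%, against 19%) and below in 4 (2.68%, against 12.6%). Without control day 1 replicate 2 the positive count was 78, against 50.1% of all probe sets, and after cyclic loess it was 98, against 46.4%.

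The members with the smallest p on day 1 were small in size. Efnb1, on a probe set other than the one that rose with the day, differed by 0.36 (SE 0.16, unadjusted p = 0.059), with controls at 7.70 and 7.64 and Erg arrays at 7.96 and 8.12. Unc5c differed by 0.25 (SE 0.12), at 9.55 and 9.46, then 9.70 and 9.80. Epha1 differed by 0.30 (SE 0.15). Below the controls lay 1 of 3 Slit2 probe sets, at 7.68 and 8.55 against 7.57 and 7.54. Its difference of -0.56 was -0.13 without control day 1 replicate 2. The other Slit2 probe sets, the brightest among them, differed by 0.29 and 0.22. Ephb2 differed by -0.17 on its dimmest probe set, while its brighter ones differed by 0.33 and 0.08. Sema4c differed by -0.07. The adjusted p was 1 for each of these 6 in limma.

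**Figure D5:**
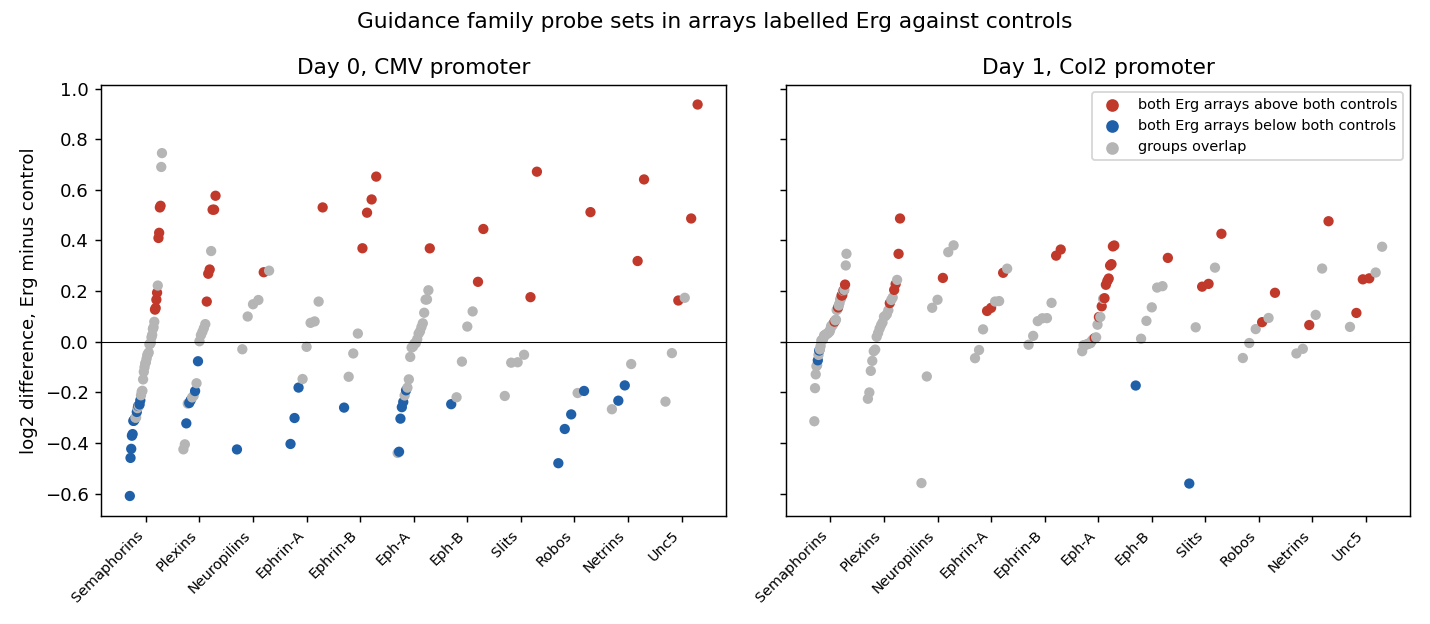
Log2 difference between arrays labelled Erg and controls for each guidance probe set by family, on day 0 (left) and day 1 (right); red and blue mark probe sets whose 2 Erg arrays lay both above or both below the 2 controls. On day 1, 39 points are red and 4 blue, against 31 and 34 on day 0.

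The change of the Erg difference from day 0 to day 1, equal to the difference between the arms' day changes, passed for 0 members in limma (0% of all probe sets). At an unadjusted p under 0.05 there were 5 higher and 1 lower (4.03%, against 2.44% of all probe sets, 1.42% higher and 1.03% lower). Sema6a was at 0.64 (SE 0.16, unadjusted p = 0.0055), Epha5 at 0.53 (SE 0.18) and Ntn4 at -0.67 (SE 0.22), each with an adjusted p of 0.974. Ntn4 thus read 0.64 above the controls on day 0 and 0.03 below them on day 1. The other 3 were probe sets of Epha5, Sema6c and Plxna3.

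Genes that act below these receptors were read from a list of 50 partners and effectors, of which 49 were measured. Between the control days 19 rose and 3 fell, with a median of 0.38, against 11.8% higher, 7.97% lower and a median of -0.11 over all probe sets. The list holds 1 probe set per gene, the one with the highest mean, while the background includes dim probe sets. Among the guidance members, 31.6% of those above the median on all 8 arrays rose, against 18.8% of all members. The shares of the list and of all probe sets are therefore not directly comparable. Trio, an exchange factor that acts below the netrin receptor Dcc, rose by 2.02 (SE 0.22, adjusted p = 0.00423), from 9.08 and 8.76 to 10.96 and 10.93. Farp2, an exchange factor of the plexin-A and neuropilin complex, rose by 1.73. Dpysl2, a microtubule partner in the response to Sema3a, rose by 1.55, and Itsn1, an exchange factor tied to EphB receptors, by 1.43.

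Rnd1, a small GTPase that binds plexins inside the cell, fell by 2.20 on log2 (SE 0.40, adjusted p = 0.0152), from 10.00 and 9.75 to 7.83 and 7.52. Dpysl4 fell by 0.71 and Pak1, a kinase of the Rac pathway, by 0.54. In the Erg arm 14 of the 49 rose and 1 fell, against 5.32% higher and 1.67% lower over all probe sets, dim ones included. In the 2 comparisons of Erg with control 0 passed in limma, as over the whole array. There 33 of 49 were positive on day 0 and 40 on day 1. All probe sets, dim ones included, gave 47.2% and 57.3%.

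Of 9 neuronal markers measured, 2 fell between the control days and 7 did not pass. Stmn2 fell by 3.14 (SE 0.39) and Nefl by 1.47 (SE 0.33) on log2, and Stmn2 also fell in the Erg arm, by 2.69 (adjusted p = 0.0157). In the list 5 lay below the array median on all 8 arrays, and the summed intensity, most of it from Stmn2 on day 0, lay between 2343 and 2352 on day 0 and between 605 and 714 on day 1. The summed endothelial markers lay between 646 and 767, then between 536 and 609, with Tie1 lower. The summed leukocyte markers lay between 845 and 921, then between 605 and 624, with Cd68 and Lyz2 lower. The summed chondrocyte markers lay between 2642 and 2740, then between 6894 and 7746, a sum to which Sox9 and Col9a1 gave most, while Acan, Hapln1, Matn1 and Matn3 had negative differences. The part of these lists in the guidance changes was not tested. The RNA came from a mesenchymal line, and these values do not show that cells of the named types were present. In such bulk cultures a change in some cells and a change in all cells cannot be told apart.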

How the data were processed

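RNA of 8 samples in 4 groups of 2 was hybridised to Affymetrix mouse arrays. The authors deposited RMA intensity values on a linear scale, per the file headers; the series text names dChip for this step and the workbook's notes name Partek, and which was used is not given in the sources used here. RMA subtracts background, equalises the arrays' distributions and sums probes, so changes shared by most transcripts are removed. Raw images and detection calls were not used here.

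The deposited intensities were taken to log2 and fitted with limma 3.58.1 (R 4.3.3) as 4 group means over 8 arrays, 4 residual degrees of freedom, all 45037 probe sets unfiltered, with Benjamini-Hochberg adjustment over all of them and a threshold of 0.05. An exact permutation of 2 against 2 arrays cannot go below 0.333, so none is given. The fit was also run on simulated data, in which every probe set of a group had the same spread, unlike the real data. Recovery of planted changes varied widely with the comparison and the size of the change. A comparison without calls can therefore have missed real changes.

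The members, the list of partners and the markers were chosen with earlier results of these data known. Named genes were, per family, up to 4 with the largest passing difference between the control days and that with the highest mean; for each Erg comparison the 3 members with the smallest p in each direction among those without overlap; and the 3 with the smallest p between the arms. Between the control days the probe set shown is one that passed, or the brightest where none did. In the Erg comparisons and between the arms it is the one with the smallest p under that rule, and none passed. Other probe sets of these genes are given in part, as differences. Promoter sequences are RefSeq's, build GRCm38.p6, for 59 of 68 genes. The number of arrays limits the precision.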

Additional observations from a re-analysis of the deposited data

How the results depend on the processing

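The alternatives were an intensity trend in the variance, leaving out the dimmest 30% of probe sets, a replicate block, cyclic loess, the comparison's arrays alone, 1 probe set per symbol, and each array left out in turn. Against 38 passing members between the control days, 1 probe set per symbol gave 18, with 68 members in place of 149, and leaving out arrays gave 4 to 58. Against 19 between the Erg days, 1 probe set per symbol gave 10, the arrays alone gave 0, and leaving out arrays gave 3 to 46. Against 0 for Erg on day 0, leaving out arrays gave 0 to 10. For Erg on day 1 and for the difference between the arms every setting gave 0. Single differences were followed only for probe sets named for their passing difference between the control days or for the smallest p. None of these changed sign under these settings, and other named members were not followed. The day 0 count of positive Erg differences moved from 65 of 149 to 93 without Erg day 0 replicate 2. The labels give same-numbered arrays only a shared number, and whether they were paired is not known. Deviations of same-numbered arrays correlated from -0.61 (the day 0 groups) to 0.32 (the day 1 groups) over all probe sets. With the replicate block 31 members passed between the control days, 19 between the Erg days and 0 in the other 3 comparisons. With the Erg day 0 numbers crossed, added after seeing the data, 41 and 23 passed. Counts of positive differences were also added after seeing the data. Among single members, 460 values under the alternatives kept direction and side of the threshold, 75 lost their call and 1 gained it. The causes were not tested, apart from the fewer members or arrays by construction. Signal over background could not be measured, which limits most the probe sets below the first quartile.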

Other observations

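Sema3d, a class 3 semaphorin, differed between the 2 repeats of day 1 in both arms. The control arrays read 8.27 and 7.01 in log2 and the Erg arrays 8.31 and 7.14, so that each first repeat lay above each second repeat. Its dimmer probe set read 5.95 and 4.86, then 5.96 and 4.99. The day 0 controls both read 6.58 on the first probe set. Col2a1, the cartilage collagen, read 10.21 and 9.21 in the day 1 controls and 10.25 and 9.18 in the day 1 Erg arrays. These genes were picked after their values were seen, and the difference between repeats was not tested.

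Sema5a, a transmembrane semaphorin with thrombospondin repeats, was higher on the second Erg array of day 0 than on the other day 0 arrays in 3 of 4 probe sets. Its second brightest read 5.24 and 4.47 in the day 0 controls and 5.06 and 6.03 in the Erg arrays. It too was picked after its values were seen.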
